A study of Gallus gallus with 6 samples.

Results

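The genes described here stood at similar levels in chicken leg muscle on days 11 and 16 of incubation. On the day after hatching they were lower, and no stage between day 16 and then was sampled. They were chosen from the deposited FPKM values (fragments counted for a transcript, scaled to its length and to all mapped fragments) of Xinghua chickens, a slow-growing native breed. Muscle was taken on days 11 and 16 of incubation (E11 and E16) and on day 1 after the hatch (D1, named P1 in the labels), with 2 libraries at each stage and 6 in all. All 6 are labelled female, no agent or allele separates the stages, and the muscles that made up a leg sample are not named. For each Ensembl gene, r is the log2 ratio of the later to the earlier FPKM, each raised by 1. A gene is a member if r lay between -0.5 and 0.5 from E11 to E16 and was -1.5 or less from E16 to D1, and an r of -1.5 or less is called past the fold. Of 16781 genes, 63 (0.375%) met both conditions, 49 of them with a gene symbol and 14 without.

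The deposited tables give 1 FPKM per transcript and stage, made from both libraries together. No spread between libraries could be had, so no difference below has a replicate check, an SD or a p-value, and every value is a description of these libraries. As the members were chosen on these same values, their levels at E16 and D1 are not evidence of a decline by themselves. A pair of stages has its own table, and the tables were scaled separately, so that a stage has 1 FPKM in each of its 2 tables. The E16 values in the table of E16 vs. D1 were a median of 0.705 times those in the table of E11 vs. E16, and levels are therefore compared within a table. In bulk tissue, fewer cells of a type and less RNA per cell cannot be told apart.

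Skeletal muscle of the chicken forms in steps, from dividing myoblasts to myotubes and then to fibers. Myoblasts leave the cell cycle, switch on myogenic factors such as MYOG, line up and fuse. Connective tissue, vessels and nerves grow around the fibers at the same time, so whole muscle holds RNA of all these cells. The leg samples carried the markers of skeletal muscle at all stages. FPKM of ACTA1, skeletal alpha-actin, was 232 at E11 and 15838 at E16, and in the table of E16 vs. D1 it was 11163 at E16 and 18026 at D1. FPKM of DES, the intermediate filament of muscle, was 319 at E16 and 357 at D1. Marker lists of red cells, leukocytes, fat cells, cartilage and epidermis held no member. Members are only 0.375% of all genes, so short lists would mostly hold none. From E16 to D1 the summed FPKM of these lists went from 2287 to 1052, 57.9 to 41.4, 1064 to 1412, 105 to 153 and 5.19 to 5.46. In the same order, the genes lower and higher at D1 were 8 and 5, 9 and 6, 3 and 5, 10 and 3, and 7 and 4. For cartilage and epidermis the sum was thus higher at D1 although most genes were lower.

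Some members are copies named for W or lie on Z, so the levels of W and Z genes are given beside the labelled sex. Hens carry a Z and a W chromosome, and cocks carry 2 copies of Z. Among genes with an FPKM of 1 or more at E16 or D1, all 6 placed on W were lower at D1, with a median r of -0.77 from E16 to D1. The 524 genes on Z had a median r of 0.26, with 352 higher and 172 lower at D1, and the 9944 on numbered chromosomes had a median r of 0.03. Over the step from E11 to E16 the medians were 0.35 for W, 0.08 for Z and 0.05 for the numbered chromosomes. ATP5A1, the mitochondrial ATP synthase subunit on Z, had an r of 2.11 from E16 to D1, against -0.20 for its W copy ATP5A1W. Whether each library at D1 came from a hen cannot be read from values merged over libraries. The part of these W and Z levels in the members was not tested.

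**Figure D1:**
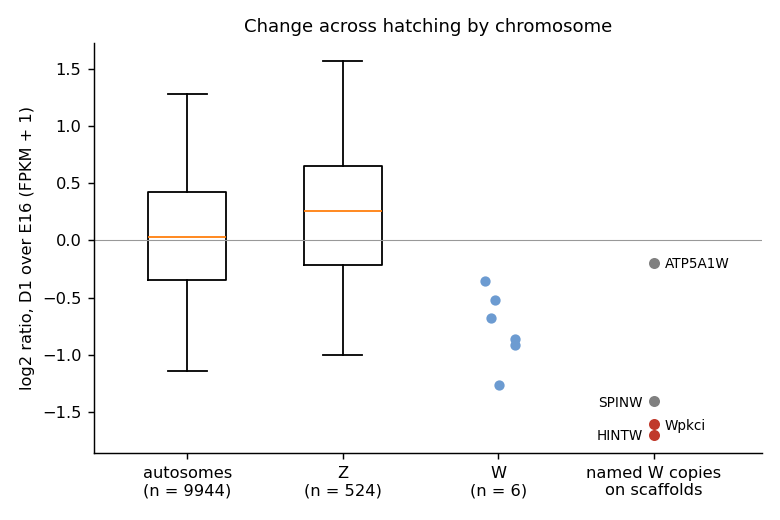
The vertical axis is the log2 ratio of D1 over E16 (each FPKM raised by 1). Boxes show the median and quartiles, with whiskers from the 5th to the 95th percentile, for 9944 genes on numbered chromosomes and 524 on Z at an FPKM of 1 or more, blue points show the 6 genes on W, and the last column shows W copies on unplaced scaffolds, members in red and the others in grey. All 6 W genes lie under 0, and none is past the fold. Members are past the fold by rule, so HINTW (-1.70) and Wpkci (-1.61) had to lie lower. Among copies that are not members, SPINW (-1.41) lies under all 6 and ATP5A1W (-0.20) above all 6.

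Most genes that were lower at D1 by the chosen fold were not members, because they had already moved between E11 and E16. From E16 to D1, 288 genes (1.72% of all and 2.62% of those with an FPKM of 1 or more at E16 or D1) had an r of -1.5 or less and 432 (2.57%) an r of 1.5 or more. Of the 288, 63 (21.9%) had changed little before. Another 94 (32.6%) had an r between -1.5 and -0.5 from E11 to E16, and 13 an r of -1.5 or less (2.79% of all genes), so that these were lower at each step. The remaining 40 and 78 had first gone up, by an r between 0.5 and 1.5 and of 1.5 or more (4.15% of all genes). An r within 0.5 of 0 from E11 to E16 was common, at 67% of all genes and 59.1% of those with an FPKM of 1 or more. The median over all genes was 0 at each step, and over the 10980 genes with an FPKM of 1 or more it was 0.05 at each.

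**Figure D2:**
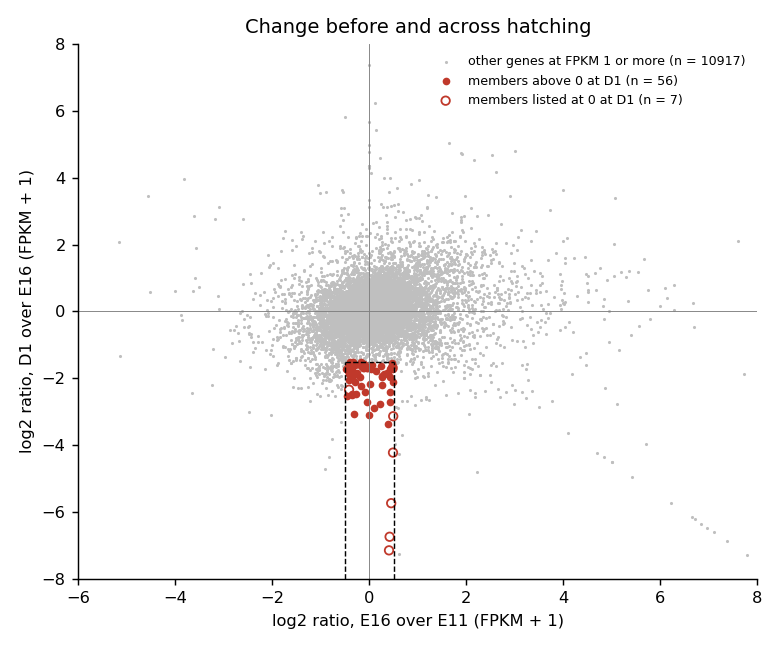
Each point is a gene, with the log2 ratio of E16 over E11 on the horizontal axis and of D1 over E16 on the vertical axis (each FPKM raised by 1). Grey points are other genes with an FPKM of 1 or more at E16 or D1, of which 22 lie outside the axes. Filled red points are the 56 members above 0 at D1, open circles are the 7 listed at 0, and dashed lines mark the bounds that chose them.

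The members spanned a wide range of levels. In the table of E16 vs. D1, 9 had an FPKM of 100 or more at E16, 36 had 10 or more and 12 were under 5. The median FPKM was 14.0 at E16 and 1.94 at D1, and 21 members were under an FPKM of 1 at D1. The median r was -0.08 from E11 to E16, with 28 higher and 35 lower at E16, and -1.92 from E16 to D1. An r of -2 or less was found for 25, and 38 lay between -1.5 and -2. Of the 56 above 0 at D1, a median of 18.5% of the E16 level was left, from 5.94% for TFCP2L1 to 31.8% for Wpkci. In the table of E11 vs. D1, which holds the same libraries, 59 of the 63 had an r of -1.5 or less (6% of all genes). The median of the members was -2.10. The bounds that chose the members largely fix this r, so it adds no support. The 4 exceptions had all been higher at E16 than at E11, among them CYFIP2 (r -1.24 from E11 to D1) and ARHGAP40 (-1.34).

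Role groups were assigned to the members only, so their sizes depend on how they were drawn and have no share over all genes. Cell division and chromatin was the largest of those with symbols, with 10 members. HIST1H46, a core histone H4 gene whose RNA is made as DNA is copied, had the highest level. Its FPKM was 1069.5 at E11 and 898 at E16, and it then had 633 at E16 and 177 at D1 in the table of those stages (r -1.83). FPKM of LMNB2, a B-type lamin of the nuclear envelope, was 237 at E11 and 186 at E16, then 131 at E16 and 38.4 at D1 (r -1.74). Left at D1 were 28.0% of the E16 level for HIST1H46 and 29.3% for LMNB2.

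Of this group, 4 members build or organise the spindle and the midzone where the cell is cut. NUSAP1, which bundles spindle microtubules near chromatin, went from an FPKM of 31.1 at E11 to 27.3 at E16, then from 19.3 at E16 to 4.20 at D1. PRC1, the cross-linker of antiparallel microtubules in the midzone, had an FPKM of 14.4 and 10.8, then 7.64 and 1.31. RACGAP1, the GTPase-activating partner of KIF23 in the centralspindlin complex, had an FPKM of 19.5 and 14.2, then 9.98 and 2.18. FPKM of HAUS8, a subunit of the augmin complex that branches microtubules, was 16.8 and 12.3, then 8.69 and 1.64. Their r from E16 to D1 lay between -1.79 for RACGAP1 and -1.96 for NUSAP1.

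The other members of the group act at the centromere, the midbody, the centriole and in transcription. HJURP, the chaperone that loads the centromeric histone CENPA, went from an FPKM of 15.3 at E11 to 11.2 at E16, then from 7.90 at E16 to 1.17 at D1 (r -2.04). FPKM of SHCBP1, an adaptor found at the midbody, was 13.4 and 16.2, then 11.4 and 2.27 (r -1.92), and it was the group's only member besides KIF24 that stood higher at E16 than at E11. KIF24, a kinesin that acts at centrioles and represses cilia, had an FPKM of 7.70 and 7.82, then 5.52 and 0.453 (r -2.16). A second KIF24 transcript had an r of -0.93 from E11 to E16 and -0.95 from E16 to D1, where its E16 FPKM was under 1. E2F8, a repressor of the E2F family, had an FPKM of 11.0 and 8.67, then 6.12 and 1.36 (r -1.59).

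Most genes of cell division were not members. Most were already lower at E16, and most were not past the fold from E16 to D1. The 6 lists of cell division covered mitotic kinases and checkpoint, kinetochore, kinesins and spindle, cytokinesis, condensin and cohesin, and DNA replication. The condensin and cohesin list also held other chromosome proteins, such as MKI67, TOP2A and HMGB2. Between the 6 lists 182 genes were found. Of these, 127 (69.8%, against 16.6% of all genes) had an r under -0.5 from E11 to E16. From E16 to D1, 54 of the 182 (29.7%, against 1.72% of all genes) were past the fold and 0 had an r of 1.5 or more. Of the 54, 47 had an r between -1.5 and -0.5 over the earlier step, 1 had -1.5 or less, and 6 were members: NUSAP1, RACGAP1, SHCBP1, HAUS8, HJURP and PRC1. The 48 other genes that had stayed within 0.5 of 0 before had a median r of -0.46 from E16 to D1.

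Among the 6 lists, the share past the fold from E16 to D1 was highest for the machinery of mitosis and lowest for replication. All 6 lists stood above the 1.72% of all genes. Among mitotic kinases, cyclins and checkpoint genes, a list that also held SHCBP1, 15 of 32 were past it. Past it were also 13 of 36 kinetochore genes, 12 of 32 kinesins and spindle genes and 6 of 12 cytokinesis genes. The count was 7 of 22 for the condensin and cohesin list, and 3 of 51 for DNA replication. Of the 7, SMC2, SMC4, NCAPH and NCAPG belong to condensin, while MKI67, TOP2A and HMGB2 belong to neither complex. No cohesin gene of that list was past the fold. Replication genes had a median r of -0.69 from E11 to E16 and -0.73 from E16 to D1, against -0.80 and -1.44 for mitotic kinases, cyclins and checkpoint. No member came from the replication or the condensin and cohesin lists, but members are only 0.375% of all genes. Of 20 transcription factors of the cell cycle 2 were past the fold, the member E2F8 and FOXM1, which had an r of -0.90 before.

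The bound at -0.5 ran through this family. MKI67, the proliferation marker, lay just outside it with an r of -0.57 from E11 to E16 and -2.22 from E16 to D1. ECT2, which RACGAP1 activates, lay outside with -0.54 and -1.65, and PTTG1, the securin, with -0.52 and -1.53. RACGAP1 lay inside at -0.44, and DIAPH3, a formin of the cleavage furrow, missed the other bound at -1.48. Others past the fold lay further off, among them AURKA with an r of -1.12 and TOP2A with -1.58 from E11 to E16.

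**Figure D3:**
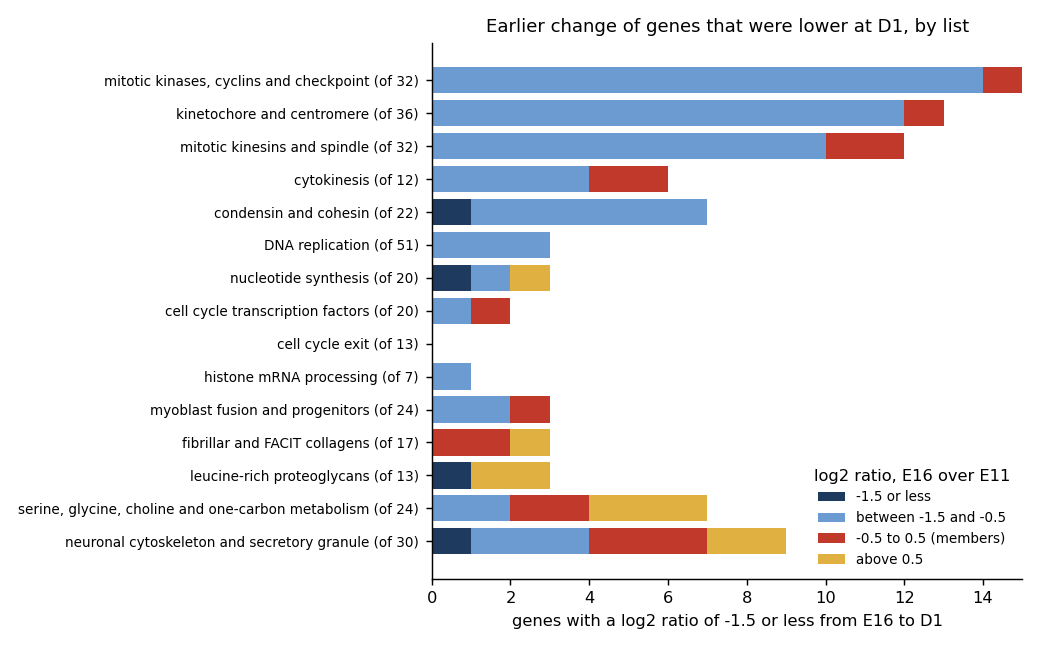
Bars count the genes of each list whose log2 ratio from E16 to D1 was -1.5 or less, with the number of genes found in brackets. Colours give the log2 ratio of the same genes from E11 to E16, and red marks the members. The mitotic lists are mostly light blue (between -1.5 and -0.5 before), while the collagen list holds no blue.

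A run of 5 members lay within a 91.1 kb stretch of chromosome 1 (positions 47926959 to 48018082 on galGal4), which holds a histone gene cluster. They were HIST1H46 and 4 entries without a symbol, whose r from E16 to D1 ran from -1.98 to -3.06. Several transcripts share a locus there. The neighbours HIST1H2B7 (FPKM 367 at E16 and 116 at D1) and HIST1H2B5 (73.7 and 18.2) were also past the fold, with r of -1.65 and -1.96. They were not members, since their r from E11 to E16 was -0.87 for each. The linker histone genes HIST1H111R and HIST1H111L had r of -1.48 and -1.28. Replication-independent H3F3B, with FPKM values of 255 for E16 and 212 for D1, had an r of -0.27, but a second H3F3B transcript (3.47 and 0.576) had -1.504. Variant histones outside the cluster differed among themselves: H2AFY2 had an r of -2.67, H2AFX -1.59 and H2AFZ -0.34. Within the cluster an H2A-VIII transcript had an r of 2.06, with an FPKM of 0.126 at E16 and 3.698 at D1. The same was not true of other genes beside the cluster: WBP11 had an r of -0.09 and MGP, a calcification inhibitor, an r of 3.03. Histone genes are near-identical copies, and how the authors' counting split their reads is uncertain.

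Most genes near members were not past the fold. Within 50 kb of a member lay 188 other Ensembl transcripts with an FPKM of 1 or more at E16 or D1. Of these 9 had an r of -1.5 or less and 8 an r of 1.5 or more, and their median was 0.02, against 2.75% past the fold and a median of 0.05 over all such transcripts. Of the 9, 4 lay in the histone stretch. The other 5 were RNF122, TUBB2B, AURKA and 2 small RNAs. Of 4 lncRNAs at that level near members, 0 were past the fold (3.16% of all such lncRNAs), and their median r was -0.58, against -0.14 over all such lncRNAs. Chromosome 1, the longest, held 12 members (0.549% of its genes), 5 of them in the histone stretch, and chromosome 2 held 9 (0.622%), against 0.375% overall.

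Proteins of microtubules, actin and the growing neuron's cytoskeleton made a group of 8 members, the highest being STMN1. Stathmin (STMN1, chromosome 23 from 3198617 to 3201919), which binds tubulin dimers and favours microtubule disassembly, had an FPKM of 686 at E11 and 532 at E16. In the table of E16 vs. D1 it stood at 375 and 64.8 (r -2.51), so 17.3% was left. DCX, doublecortin, which stabilises microtubules in migrating neurons, had an FPKM of 81.5 and 58.6, then 41.3 and 6.40 (r -2.52). FPKM of its relative DCLK3 was 14.9 and 11.6, then 8.19 and 1.40 (r -1.94). TUBAL3, an alpha-tubulin, went from an FPKM of 111 to 91.4, then from 64.5 to 10.9 (r -2.46), and tubulins are similar enough in sequence to share reads.

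The same group held MYO10, the myosin of filopodia tips, with an FPKM of 34.0 at E11 and 41.0 at E16, then 29.0 at E16 and 6.73 at D1 (r -1.96). A further 3 members were at low levels, with E16 FPKM between 2.69 for LZTS1 and 5.299 for TRIM36. They were TRIM36, a ubiquitin ligase that binds microtubules (r -2.19), CYFIP2 of the actin-regulating WAVE complex (-1.63) and LZTS1, a leucine zipper protein tied to microtubules (-1.52). MYO10 kept 23.2% of its E16 level and TRIM36 7.12%.

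Other genes of neurons took several courses. Of 30 genes in a list of the neuronal cytoskeleton and secretory granule, which also held the receptor CNR1, 9 were past the fold. The share was 1.72% over all genes, but the list was written with earlier results of these data known. Among them, 3 were members, STMN1, DCX and DCLK3 (members are 0.375% of all genes). PENK, which encodes the enkephalin precursor, was not a member, as its FPKM had gone from 236 at E11 to 137 at E16 before it went from 97.1 to 5.91 at D1. CNR1, the cannabinoid receptor, missed the upper bound with an r of 0.55 and then had -2.86. The other 4 past the fold were MAP1B (FPKM 20.9 at E16 and 6.43 at D1), TUBB2B (13.9 and 2.55), SCG3 (10.9 and 2.11) and PNOC (36.2 and 1.37). STMN2, TUBB3 and SNAP25, which mark neurons, were under an FPKM of 1 at E16. ELAVL4, NEFL and GAP43 of the same list stood at 2.60, 1.72 and 1.24 at E16 in the table of E16 vs. D1. The 12 nerve and Schwann cell markers summed to an FPKM of 459 at E16 and 401 at D1, with 0 past the fold and NEFM listed at 0 at E16. That sum was 60.7 at E11 and 654 at E16 in the other table, of which MBP made 1.86 and 297. The sum does not stand for the whole list. From E11 to E16, 6 of the 12 had an r of 1.5 or more and 4 an r under -0.5. Over the same step r was -0.37 for STMN1 and -0.47 for DCX. The part of nerve in the levels of these members was not tested.

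MYOG was the member closest to muscle differentiation. Myogenin (MYOG, chromosome 26 from 960278 to 964046), the transcription factor that commits myoblasts to fuse, had an FPKM of 17.1 at E11 and 15.1 at E16. In the table of E16 vs. D1 it had 10.7 and 1.47 (r -2.24), with 13.8% left, and r from E11 to D1 was -2.48. Its relatives did not share this course. FPKM of MYOD1 was 57.5 at E16 and 98.3 at D1 (r 0.76) and of MYF6 13.0 and 19.7 (r 0.57), while MYF5 had 2.30 and 1.40.

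Among 24 genes of myoblast fusion and muscle progenitors, 3 were past the fold, against 1.72% of all genes. Besides MYOG these were TMEM8C (myomaker, the membrane protein that fuses myoblasts), with FPKM values of 4.58 for E16 and 0.509 for D1, and the adhesion molecule NCAM1, at 25.6 and 5.83. Both were lower before, with r of -0.73 and -0.75 from E11 to E16, against -0.17 for MYOG. The median r of the list was -0.30 from E16 to D1. The T-type calcium channel CACNA1H, carried by fetal muscle in mammals, was a member at an FPKM of 5.57 and 5.05, then 3.56 and 0.404 (r -1.70).

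**Figure D4:**
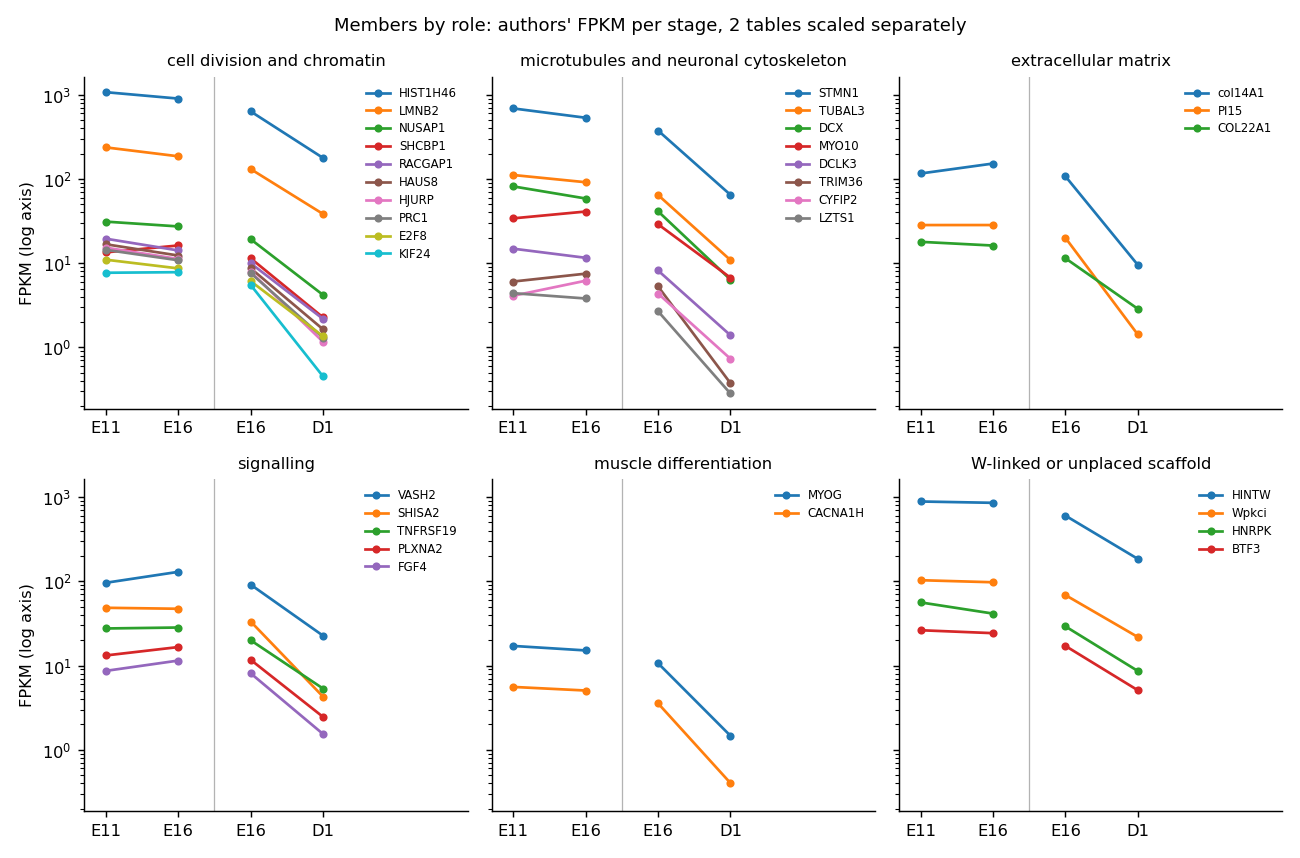
Lines join the authors' FPKM (log axis) of each member at E11 and E16 in one table and, right of the grey line, at E16 and D1 in the other, in 6 panels by role. The 2 tables were scaled separately, so the step between the E16 points is not a change. Lines are near level on the left and fall on the right in all panels, as the rule requires, with TRIM36 (7.12% left at D1) and PI15 (7.13%) the steepest of the members drawn.

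The 3 members of the extracellular matrix included the lowest r among members above 0 at D1. Type XIV collagen (col14A1, chromosome 2 from 136370296 to 136490384), which sits on the surface of collagen fibrils, had an FPKM of 116 at E11 and 152 at E16, then 107 at E16 and 9.56 at D1 (r -3.36). A second col14A1 transcript of this locus had an r of 0.53 from E11 to E16 and -3.39 from E16 to D1. PI15, a secreted protein of the CAP family, had the same FPKM of 28.3 and 28.4 at E11 and E16, then 20.0 and 1.43 (r -3.11). COL22A1, a collagen of the muscle-tendon junction, had an FPKM of 17.9 and 16.2, then 11.4 and 2.87 (r -1.68). At D1, 8.89% of the E16 level was left for col14A1, 7.13% for PI15 and 25.1% for COL22A1.

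The main fibril collagens were lower at D1 by much less. Of 17 fibrillar and fibril-associated collagens 3 were past the fold, col14A1, COL22A1 and COL20A1, against 1.72% of all genes. COL20A1 had an FPKM of 73.6 and 9.77 after an r of 0.94 from E11 to E16. FPKM of COL3A1 was 1567 at E16 and 1225 at D1 (r -0.36), and COL1A2 had an r of -0.51. COL5A1 and COL5A2, also near level from E11 to E16, had r of -0.46 and -0.74, and fibril-associated COL12A1 had 0.67. The 18 markers of connective tissue fibroblasts, PI15 among them, summed to an FPKM of 1570.0 at E16 and 1202 at D1, with 12 lower, 6 higher and 0 of them at 0. The 8 tendon markers summed to 191 and 251, with 2 lower and 6 higher at D1. The 9 bone markers summed to 17.7 and 5.63, with 9 lower and DLX6 listed at 0 at D1. Past the fold were 2 of the tendon markers and 2 of the bone markers, against 1.72% of all genes. Whether these cells had a part in the levels of col14A1 and PI15 was not tested.

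A group of 5 members was assigned to signalling. VASH2, a vasohibin that removes the terminal tyrosine of alpha-tubulin and is known from vessel growth, had an FPKM of 96.0 at E11 and 129 at E16, then 91.2 at E16 and 22.6 at D1 (r -1.97). SHISA2, which holds back maturation of WNT and FGF receptors, went from an FPKM of 48.5 to 47.2, then from 33.3 to 4.27 (r -2.70). TNFRSF19, a receptor of the TNF family, had an FPKM of 27.5 and 28.3, then 19.9 and 5.33 (r -1.73). FPKM of PLXNA2, a semaphorin receptor, was 13.2 and 16.6, then 11.7 and 2.46 (r -1.88), and that of the ligand FGF4, a growth factor of the limb bud ridge, 8.65 and 11.5, then 8.08 and 1.54 (r -1.84). SHISA2 and TNFRSF19, both on chromosome 1, were level from E11 to E16, with r of -0.04 and 0.04.

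In a list of 16 endothelium markers, VASH2 was the only gene past the fold downward, against 1.72% of all genes. The list was written with earlier results of these data known, so the place of VASH2 in it is no separate support. The list summed to an FPKM of 435 at E16 and 487 at D1, with 4 lower and 12 higher at D1 and 0 at 0, among them PECAM1 at 112 and 184. JSC, listed by RefSeq as a synonym of the chemokine CXCL14, was a further secreted member. Its FPKM was 39.5 at E11, 42.0 at E16, then 29.7 at E16 and 3.16 at D1 (r -2.88), with 10.7% left.

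The members held 2 enzymes of choline and methyl metabolism. GNMT, glycine N-methyltransferase, which uses up S-adenosylmethionine, had an FPKM of 53.2 at E11 and 71.7 at E16, then 50.6 at E16 and 6.86 at D1 (r -2.71). CHDH, choline dehydrogenase of mitochondria, had an FPKM of 27.8 and 21.3, then 15.01 and 3.04 (r -1.99). AHCY, which clears the product of GNMT, lay just outside the members, at an FPKM of 133 and 46.4 (r just above the bound) after an r of 0.14 from E11 to E16.

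Neighbouring steps of this pathway were lower at D1 from other starting courses. Of 24 genes of serine, glycine, choline and one-carbon metabolism 7 were past the fold, against 1.72% of all genes. An r of 1.5 or more was found for 0 of them, against 2.57% of all genes. MAT1A, which makes S-adenosylmethionine, went from an FPKM of 176 at E16 to 5.38 at D1 after an r of 2.22 from E11 to E16. DMGDH, a later step of choline breakdown, had 88.3 and 13.1 after 1.07, and GATM, the first enzyme of creatine synthesis, 926 and 136 after 5.11. SARDH and PHGDH had been lower at E16, with r of -1.23 and -0.85. MTHFD1, SHMT1 and MTR of the folate cycle had r between -0.05 and 0.21 from E16 to D1. The median of the list was -0.21.

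Liver and kidney express several of these enzymes strongly. The 10 kidney markers found summed to an FPKM of 181 at E11 and 4.69 at E16 in the first table, and to 3.30 at E16 and 3.56 at D1 in the other, with SLC34A1 and AQP2 listed at 0 at both. The 14 liver markers summed to 206 and 138, then 97.1 and 434, of which APOA1 made 404 at D1. ALB, serum albumin, stood at 4.25 at E16 and 0.313 at D1, and TTR was listed at 0 at D1. These lists were written after earlier results of these data were known. Their part in the level of GNMT, CHDH or TFCP2L1 at E11 was not tested.

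Besides MYOG and E2F8, TFCP2L1 and SIM2 are transcription factors. TFCP2L1, a grainyhead-related factor known from kidney ducts and stem cells, had an FPKM of 6.35 at E11 and 8.93 at E16, then 6.30 at E16 and 0.375 at D1 (r -2.41). SIM2, a basic helix-loop-helix PAS factor, had an FPKM of 3.92 and 4.80, then 3.39 and 0.407 (r -1.64). Raising each FPKM by 1 makes r understate the ratio at such levels.

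On scaffolds with no chromosome lay 4 members with a symbol, some named as W copies, and 2 entries without a symbol. HINTW, a W-linked copy of a HINT1-type nucleotide-binding protein found in hens, had an FPKM of 885 at E11 and 853 at E16, then 601 at E16 and 185 at D1 (r -1.70). Wpkci, on the same scaffold and listed by RefSeq as a synonym of HINTW, had an FPKM of 103 and 97.3, then 68.6 and 21.8 (r -1.61). These copies share sequence, so the split of reads between them is uncertain. A further HINTW transcript on another scaffold had an r of -0.67. SPINW, not a member, had an r of -1.41.

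HNRPK, listed by RefSeq as a synonym of HNRNPKL, an RNA-binding protein, had an FPKM of 56.1 and 41.3, then 29.2 and 8.62 (r -1.65). BTF3, a factor of transcription and nascent chains, had an FPKM of 26.2 and 24.2, then 17.1 and 5.10 (r -1.57). All 4 kept 29.6% to 31.8% of the E16 level, against 5.94% to 31.8% for all members above 0. Their r, from -1.70 to -1.57, lay near the bound that chose members, which caps the share left. An entry without a symbol on another scaffold kept 26.5%, and a further such entry was listed at 0 at D1. On numbered chromosomes, LMNB2 kept 29.3% and HIST1H46 28.0%. No member was placed on W itself, and 3 were on Z: KIF24, TRIM36 and an entry without a symbol. The lower W and higher Z levels at D1 stand beside these values, and their part in them was not tested.

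The members held 5 small RNAs, and 4 of these were listed at 0 at D1. SNORD47, a box C/D guide for ribosomal RNA modification, had the highest FPKM of all members, 4419.6 at E11 and 6169.9 at E16, then 4321 at E16 and 1006 at D1 (r -2.10). Its neighbour SNORD24 had an r of -0.48. One transcript of snosnR60_Z15 had an FPKM of 155 at E16 and was listed at 0 at both E11 and D1. The other small RNAs within 50 kb of SNORD47 were listed at 0 at E16 and D1, though SNORD74 had an FPKM of 616 at E11. The entry gga-mir-1a-2, precursor of the muscle microRNA miR-1, had an FPKM of 149.5 at E11 and 199 at E16, then 141 at E16 with a value of 0 at D1. It shares a locus with MIB1, and gga-mir-133a-1 there was listed at 0 at both E11 and D1, with an FPKM of 116 at E16. SNORD70 (locus of NOP58, FPKM 106.1 at E16), gga-mir-6699 (17.7) and SNORA32 (7.79) were the others at 0.

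The entries at 0 rest on thin data. All 7 members listed at 0 at D1, the 4 small RNAs and 3 entries without a symbol, were marked in the deposited tables as having too few alignments to test in at least 1 table, and none of the 56 others was. In 5 of the 7, the E16 FPKM was 1.33 to 1.46 times that at E11. No fold is given for them. The libraries were made for long RNA, and the number of fragments behind these short entries is unknown.

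The remaining named members had mixed roles. CASS4, a docking protein of focal adhesions, had an FPKM of 11.0 at E11 and 10.3 at E16, then 7.28 at E16 and 0.569 at D1 (r -2.40). ARHGAP40, a GTPase-activating protein, had an FPKM of 14.5 and 19.9, then 14.0 and 3.55 (r -1.72), and VSTM4, an immunoglobulin-domain protein, 14.2 and 13.6, then 9.59 and 2.30 (r -1.68). TTYH2, a tweety-family membrane protein, went from an FPKM of 12.2 to 8.47, then from 5.97 to 1.13 (r -1.71). PRR5, a subunit of the TORC2 kinase complex, had an r of -1.60, and its second transcript had -1.53. CPNE2, a copine that binds membranes, and C18H17ORF106, listed by RefSeq as TEN1 of the telomere-binding CST complex, lay just inside the bound at -1.51 each.

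For the 14 entries without a symbol the E16 FPKM ran from 2.25 to 158 and the median r from E16 to D1 was -1.92. The 3 highest of them lay in the histone stretch. Entries just outside the fold were RNF150 (r -1.48) and SLC9A9 (-1.48) besides AHCY and DIAPH3. THBS4, a thrombospondin of tendon and muscle, lay just outside the upper bound, with an r of 0.502 from E11 to E16 and -2.01 from E16 to D1, and CYFIP2 just inside it at 0.49.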

How the data were processed

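Total RNA of leg muscle was freed of ribosomal RNA and sequenced from 2 libraries per stage. The authors aligned reads with TopHat2 (Bowtie and Trim Galore are named in the submitters' processing notes) to galGal4 with Ensembl release 73, and ran Cufflinks and Cuffdiff. FPKM values were deposited by the authors in 3 tables, 1 value per transcript and stage over both libraries. The authors' log2 fold changes, test statistics, p-values and q-values, also in these tables, were not used. Depth per value is unknown, so no interval can be given.

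Of 17942 Ensembl rows, 16 marked as holding too many fragments were dropped, and the transcript with the highest mean was kept per symbol, or each row without one, which left 16781. The pseudocount was 1. Any member could be named. Values at all stages were given first for members with the highest FPKM or lowest r of a list, and list genes outside the members were named where they were high or bore on a member, after their values were seen. The members, the role groups and the 27 lists were chosen with earlier results of these data known. Of 49 member symbols, 45 were matched in RefSeq (GRCg7b), used for names only. Some list genes are not reported here. The selection code was run on simulated data with planted declines clear of the bounds (Python 3.11.15, pandas 2.3.3). That run checks the code only and not members at low FPKM or near a bound.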

Additional observations from a re-analysis of the deposited data

How the results depend on the processing

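The number of members depended on the bounds. It was 199 with a pseudocount of 0.1 (57 of the 63 among them) and 26 with 5 (23 shared). It was 228 with a bound of -1 from E16 to D1 and 25 with -2, and 20 when the earlier r had to lie within 0.25 of 0. With the decline taken from the table of E11 vs. D1 it was 108, of which 59 were shared. The median r of the members from E11 to D1 was -2.72 with a pseudocount of 0.1, against -2.10. A minimum E16 FPKM of 5 left 51, summing transcripts gave 63, and centring on the median of all genes gave 63. Added after seeing the data were centring on genes with an FPKM of 1 or more (79, of which 61 shared), genes with a symbol only (49), members above 0 at D1 (56) and bringing E11 vs. E16 to the other table's scale (65). Median r from E16 to D1 stayed between -1.94 and -1.44 for mitotic kinases, cyclins and checkpoint, and between -0.96 and -0.70 for DNA replication.

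No paired analysis was possible because each stage has 1 value merged over its libraries. Leaving out a library was not possible for the same reason. Promoter motifs were not run. The spread between libraries, the depth behind low values and the sex of each library at D1 limit the values above.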
